A study of Mus musculus with 6 samples.

Results

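The apelin receptor and its ligands are 3 genes: Aplnr, which encodes the receptor, and Apln and Apela, which encode its peptide ligands apelin and Elabela (also called Toddler). Their probe sets, groups of short array probes that report 1 transcript, were chosen by gene symbol, and all 3 genes were found, with 5 probe sets of the 45101 on the array and 3 of 18193 genes. Aplnr was taken up because its difference between genotypes was already known, so the differences of the 3 genes are given here as a description, with no test. Entire hearts were taken from mouse embryos at embryonic day 16.5, which came from crosses of double heterozygous parents on a mixed C57/B6, 129 S6 background. Of the 6 arrays, 3 carried RNA of wild-type hearts and 3 that of FOG-2R3K5A hearts, called mutant below. FOG-2 is the product of Zfpm2 and a cofactor of GATA transcription factors, and the R3K5A change is known to keep it from recruiting NuRD, a complex that remodels chromatin. The labels name biological replicates but do not say whether a replicate was 1 heart or a pool, nor the zygosity of the mutants, so p-values measure the spread between these samples.

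The receptor is a G protein-coupled receptor that couples mainly to inhibitory G proteins and is switched off by receptor kinases and arrestins. In the embryonic heart it is known from endothelial cells, above all those of the sinus venosus and of veins that build the coronary plexus. Apelin is made by sprouting endothelium and is a target of hypoxia signalling, while Elabela acts early, in the migration of cells to the heart field, and was later placed in the epicardium, the outer cell layer of the heart.

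Aplnr was lower in mutant hearts, Apela was higher, and Apln overlapped between genotypes. All values that follow are log2 of the array intensity, so a difference of 1 unit is a doubling. On its main probe set, the one with the highest mean, Aplnr read 10.91, 10.97 and 11.14 in wild-type replicates 1, 2 and 3. In mutants it read 10.16, 9.91 and 10.32. Every mutant array was below every wild-type array, and the distance between the nearest arrays of the genotypes, 0.60, was larger than the range within wild type (0.23) or within mutants (0.41). The means were 11.01 ± 0.12 (SD, n = 3) and 10.13 ± 0.21, a difference of -0.88 (SE 0.11), which is 1.84-fold lower in mutants. In hearts taken whole, fewer cells of a type and less RNA per cell cannot be told apart.

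The other Aplnr probe set gave the same picture at a lower brightness. It read 8.87, 9.23 and 9.17 in wild type and 8.28, 7.93 and 8.09 in mutants, again with no overlap. The difference was -0.99, a 1.99-fold lower level. The gap between both probe sets of the gene ran from 1.74 to 2.23 on the 6 arrays. Both probe sets shared the genotype difference but not the order of the arrays within a genotype.

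Apela, the early ligand, went the other way. Its main probe set read 7.34, 6.96 and 7.10 in wild type and 8.46, 8.38 and 8.04 in mutants. All mutant arrays lay above all wild-type arrays, by at least 0.70, against ranges of 0.38 within wild type and 0.41 within mutants. The means were 7.13 ± 0.19 (SD, n = 3) and 8.29 ± 0.22, a difference of 1.16 (SE 0.15), which is 2.23-fold higher in mutants.

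The other Apela probe set was dim, under the filter level of 6.30 on all 6 arrays, so its values carry little weight. It read 4.26, 3.89 and 4.08 in wild type and 4.83, 5.40 and 4.84 in mutants. Its difference of 0.94 had the same sign as that of the main probe set.

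Apln, the ligand of sprouting endothelium, was read by 1 probe set. It gave 9.03, 9.40 and 9.16 in wild type and 9.24, 9.16 and 9.22 in mutants, and the genotypes overlapped. The means were 9.20 ± 0.19 (SD, n = 3) and 9.21 ± 0.04. The difference was 0.01 (SE 0.10), with a 95% interval of -0.23 to 0.24.

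**Figure D1:**
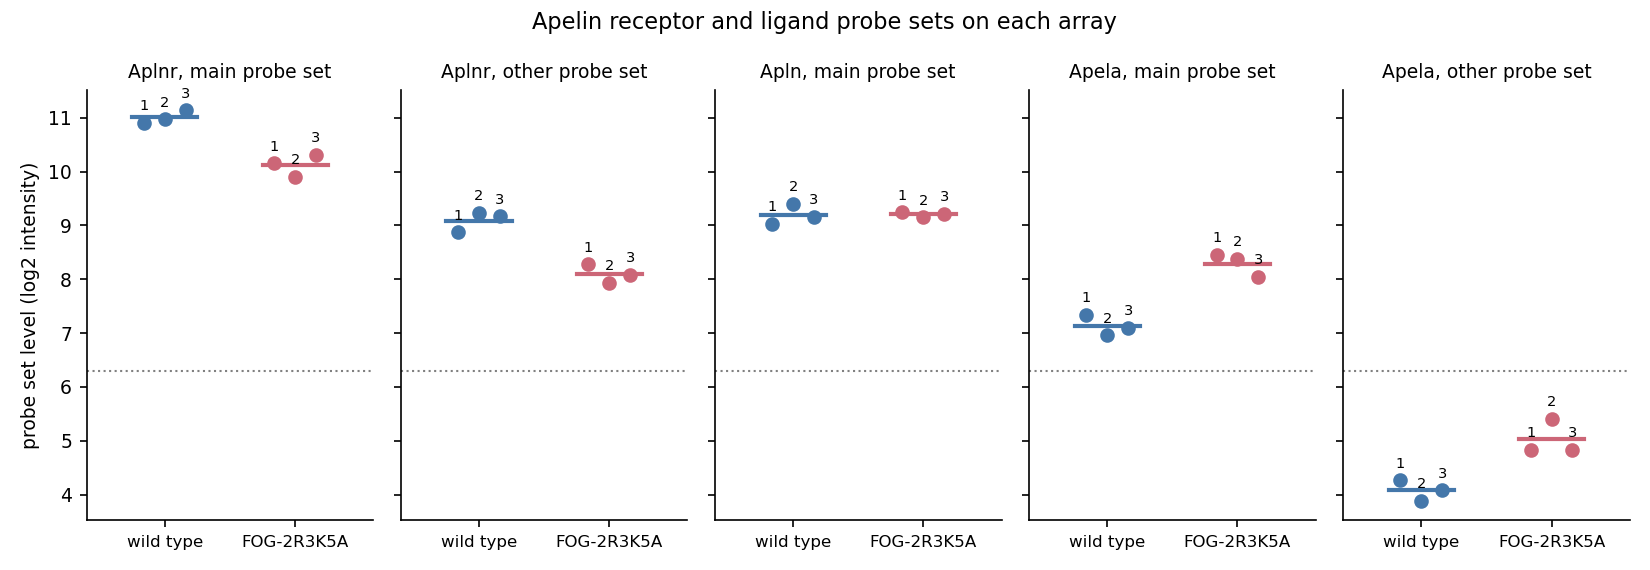
Log2 intensity of each Aplnr, Apln and Apela probe set on each array, with numbers marking the replicates, bars the genotype means of 3 arrays and the dotted line the filter level of 6.30. Both Aplnr probe sets are lower in FOG-2R3K5A hearts (differences of -0.88 and -0.99), Apela is higher (1.16 on its main probe set) and Apln overlaps.

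The genotypes were apart for 2 of the 3 genes. Over all 11113 genes tested, 21.2% did not overlap between genotypes, 9.76% with mutants below and 11.5% with mutants above. Since Aplnr was picked from this contrast, nothing is read from that count. Among the tested genes, 14 had a difference more negative than that of Aplnr, and 21 one more positive than that of Apela.

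The upstream sequences of both ligand genes are shown because one ligand differed and the other did not, and because FOG-2 acts through GATA factors. They are the 250 bases before the RefSeq start of transcription in GRCm38.p6, both on the minus strand, at chr8:65037337-65037586 for Apela and chrX:48034854-48035103 for Apln. Capitals mark the GATA core.
Apela: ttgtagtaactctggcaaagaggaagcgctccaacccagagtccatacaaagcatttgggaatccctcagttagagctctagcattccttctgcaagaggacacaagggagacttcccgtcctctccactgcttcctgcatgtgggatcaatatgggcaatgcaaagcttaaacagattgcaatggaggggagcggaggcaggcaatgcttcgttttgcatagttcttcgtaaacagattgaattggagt
Apln: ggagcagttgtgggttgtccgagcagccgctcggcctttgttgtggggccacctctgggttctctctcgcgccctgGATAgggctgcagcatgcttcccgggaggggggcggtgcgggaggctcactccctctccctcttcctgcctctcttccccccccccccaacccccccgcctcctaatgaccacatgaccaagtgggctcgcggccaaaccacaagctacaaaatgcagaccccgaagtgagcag

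The core GATA, searched on both strands, was found once upstream of Apln, 174 bases before the start, and 0 times upstream of Apela. It was present in 53.6% of the 32851 upstream windows of the same length. The longer forms AGATAA or AGATAG and TGATAA or TGATAG, which contain the core, were found in neither window and in 26.5% of all. The core of the hypoxia response element, ACGTG or GCGTG, was also in neither window and in 38.6% of all. The GC content was 48.0% for Apela and 65.2% for Apln, against a median of 52.4%. These matches describe the letters of the windows only.

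The arrays were similar in brightness, with medians of 77.3 to 84.1 in intensity. Wild-type replicate 1 correlated with the mutant arrays at 0.984 to 0.990 across tested genes, more than the other wild-type arrays did (0.972 to 0.983), and its 18S rRNA controls read 969 against 429 and 411 on the other wild-type arrays and 631 to 1051 on mutant arrays. Without it the differences of Aplnr and Apela were -0.93 and 1.26. All 7 cardiomyocyte markers and all 22 endothelial markers were above the filter level. Of 5 lung epithelial markers 3 were, and their summed level was 7.39 to 8.11 in wild type but 9.38, 7.40 and 11.75 in mutant replicates 1, 2 and 3. Scgb3a2, a secretoglobin of airway cells, carried most of that, with 4.83, 4.81 and 5.40 in wild type and 9.03, 4.87 and 11.36 in mutants. Sftpc was high only in mutant replicate 3 (9.43, against 5.80 to 6.53 on the other arrays), Sftpb overlapped between genotypes (-0.14), and Scgb1a1 and Nkx2-1 were under the filter. Mutant replicate 2, whose summed lung markers were at the wild-type level, had Aplnr at 9.91 and Apela at 8.38. The part of lung RNA in the differences was not tested. Of 5 skeletal muscle markers 2 were tested, and both fell. Tnni2 fell by 1.04 (adjusted p = 0.0217 by limma) and Casq1 by 0.41 (adjusted p = 0.0467), with the call lost under 4 of 11 and 10 of 13 alternatives. Myod1 (0.42), Myog (0.38) and Myh3 (-0.07) were under the filter and did not share this fall.

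Because Apln lies on the X chromosome, the sex-linked genes were read as well. Xist, transcribed from the inactive X, read 11.58, 12.03 and 12.12 in wild type and 11.90, 11.72 and 10.82 in mutants. The Y-linked Eif2s3y read 9.69, 8.77 and 8.86 in wild type and 8.95, 9.34 and 10.30 in mutants, so transcripts of both sex chromosomes were present on every array. Neither passed the test between genotypes (adjusted p = 0.457 and 0.588 by limma), and Apln was within 0.37 on all 6 arrays. The share of female and male tissue per array was not tested.

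The genes around the receptor were compared with limma over all genes tested, where an adjusted p under 0.05 is called a change. The gene lists were chosen with earlier results of these data known, so their counts and p-values only describe the listed genes. By this rule 196 of 11113 genes changed (1.76%), 155 upward (1.39%) and 41 downward (0.369%). Leaving out wild-type replicate 1 gave 448 changed genes, and leaving out mutant replicate 1 gave 30, with the other arrays in between. Of the 29 tested genes in the lists of apelin processing, receptor transduction and receptor effectors, 2 rose and 1 fell, with a median difference of -0.01 against -0.01 over all genes. At an unadjusted p under 0.05 there were 6 of 29, where 14.7% of all genes passed. Without mutant replicate 1 none of these genes was called (5 at an unadjusted p under 0.05), without mutant replicate 3 or wild-type replicate 3 there was 1 call, and without wild-type replicate 1 there were 4.

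Among enzymes that make or break the peptides, Furin, the convertase that cuts the apelin and Elabela precursors, rose. It read 10.63, 10.70 and 10.70 in wild type and 11.12, 11.04 and 11.16 in mutants. All mutant arrays were above all wild-type arrays, a difference of 0.43 (SE 0.06, 1.35-fold, adjusted p = 0.0126 by limma). The call was lost without wild-type replicate 3, mutant replicate 1 or mutant replicate 3 (adjusted p = 0.0521, 0.102 and 0.0545), while the difference stayed between 0.40 and 0.46. Of the 6 genes tested in this list 1 rose and 0 fell (1.39% and 0.369% of all genes), and 2 had an unadjusted p under 0.05 (14.7%). Positive differences were found in 5 of the 6 (5246 of 11113 over all genes). Ece1, an endopeptidase of the endothelin system, had 0.22, Pcsk5 0.33, and Prcp, a carboxypeptidase that trims apelin, -0.16.

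The receptor kinases, which mark active receptors for arrestin binding, moved in opposite directions. Grk3 read 9.24, 9.64 and 9.67 in wild type and 8.82, 8.65 and 8.74 in mutants. It fell by 0.78 log2 units (SE 0.12, 1.72-fold, adjusted p = 0.0188 by limma), and its other two probe sets gave -0.65 and -0.58. Grk5 read 9.08, 8.89 and 8.73 in wild type and 9.73, 9.68 and 9.56 in mutants. It rose by 0.76 (SE 0.10, 1.69-fold, adjusted p = 0.0108 by limma), and its other probe set also gave 0.76.

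Neither kinase overlapped between genotypes. The call of Grk3 was lost when any array but wild-type replicate 1 was left out, with the mean over probe sets and with no filter (adjusted p = 0.0544 to 0.0841), with differences of -0.82 to -0.67 in those settings. That of Grk5 was lost only without mutant replicate 1 (adjusted p = 0.0743). The remaining transducers did not pass, among them the inhibitory G protein subunits Gnai1 (-0.05), Gnai2 (-0.21) and Gnai3 (0.10), Gna13 (-0.11), and the arrestins Arrb1 (0.17) and Arrb2 (-0.06). Of 12 tested genes in this list 1 rose and 1 fell (1.39% and 0.369% of all genes). At an unadjusted p under 0.05 there were 2 of the 12 (14.7% of all genes).

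Of the 11 tested effectors and targets 0 passed by limma, and 2 had an unadjusted p under 0.05 (14.7% of all genes). These were Mef2a, a transcription factor of heart muscle, at -0.17 (adjusted p = 0.214), and Klf4, a transcription factor of endothelium under flow, at 0.38 (adjusted p = 0.218). Mef2c had 0.00, Hdac4 -0.05, Hdac5 -0.20, Klf2 0.14 and Nos3, the endothelial nitric oxide synthase, 0.20.

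Other receptors of vascular peptides and lipids, with their ligands, were set beside Aplnr. Of 14 tested genes 0 passed by limma, 6 had an unadjusted p under 0.05 (14.7% of all genes), and the median difference was 0.08. The lowest was Ramp1, a partner of the calcitonin receptor-like receptor, at -0.37. That none was as low as Aplnr follows from Aplnr being picked for its difference. The angiotensin receptor Agtr1a, the close relative of Aplnr in sequence, had -0.14 with a 95% interval of -0.54 to 0.27. The smallest p values belonged to Ackr3, a scavenger receptor for Cxcl12, at 0.53 (adjusted p = 0.0605), and to Ednrb, an endothelin receptor, at 0.40 (adjusted p = 0.0798). Both passed without wild-type replicate 1 (adjusted p = 0.00981 for each) and under no other alternative, where the adjusted p reached 0.203 and 0.240.

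**Figure D2:**
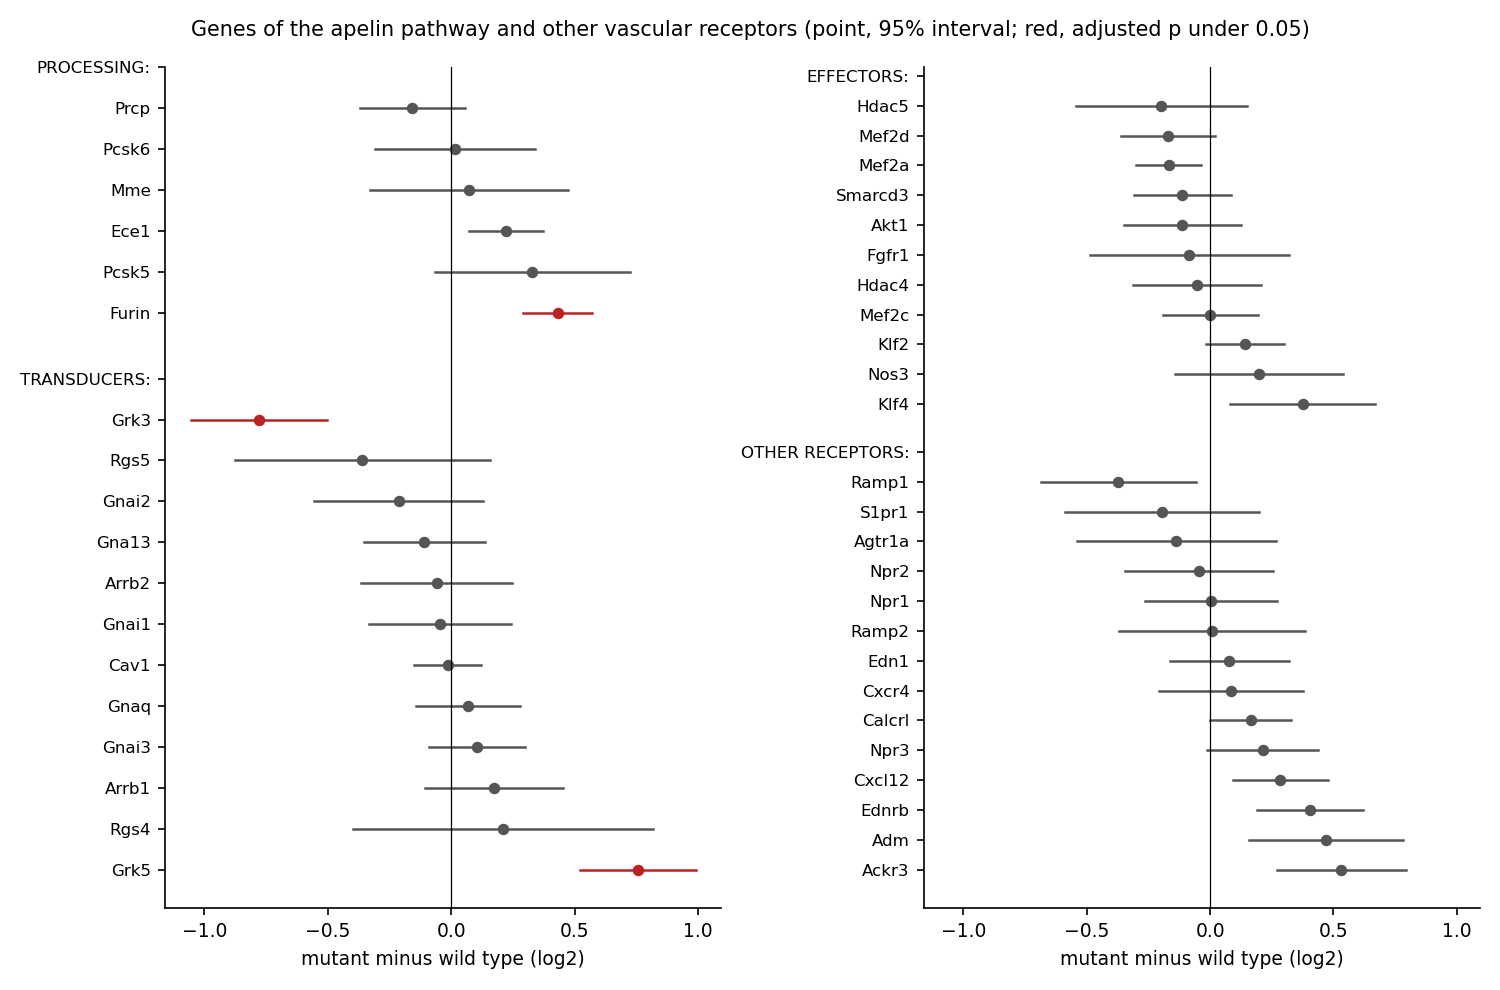
Difference between genotypes on the log2 scale (point) with its 95% limma interval (line) for the tested genes of the lists named in capitals, red where the adjusted p was under 0.05. Furin (0.43) and Grk5 (0.76) rose and Grk3 fell (-0.78), while no other vascular receptor or ligand was called.

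Aplnr was next set beside transcripts shared by endothelial cells. The mean of 22 pan-endothelial genes was 9.68 to 9.74 in wild type and 9.73 to 9.78 in mutants, a difference of 0.04. The gap between Aplnr and this mean, of which only the change is read, was 1.23, 1.24 and 1.44 in wild type and 0.37, 0.18 and 0.59 in mutants. It did not overlap between genotypes and differed by -0.92, against -0.88 for Aplnr alone. As the mean differed by only 0.04, this separation is that of Aplnr itself, and nothing further is read from it. Of the 22 genes 0 passed by limma, and 3 had an unadjusted p under 0.05 (14.7% of all genes). These 3 were Emcn at 0.23 (adjusted p = 0.130 by limma), Mmrn2 at 0.42 (adjusted p = 0.186) and Fli1 at -0.29 (adjusted p = 0.328). Cdh5, the cadherin of endothelial junctions, had 0.01, Kdr, the main VEGF receptor, -0.10, and Pecam1 0.12.

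The venous list, closest to the known site of the receptor, had 1 rise and 0 falls among 7 tested genes, with a median of 0.03. Over all genes tested 1.39% rose and 0.369% fell. At an unadjusted p under 0.05 there were 3 of the 7, where 14.7% of all genes passed. The rise was in Vwf, the von Willebrand factor, which read 8.52, 8.55 and 8.59 in wild type and 9.75, 9.19 and 9.49 in mutants. It changed by 0.92 (SE 0.13, 1.90-fold, adjusted p = 0.0123 by limma). The call was lost without wild-type replicate 3 or mutant replicate 3 (adjusted p = 0.0537 and 0.0709) and, barely above the threshold, without mutant replicate 1. Plvap, a protein of endothelial diaphragms, had 0.50 (adjusted p = 0.115) with all mutant arrays above wild type, Dab2 0.20 and Flt4 0.03. Nr2f2, the transcription factor of vein identity, had -0.25 (adjusted p = 0.364), Ephb4, the venous ephrin receptor, -0.21 (adjusted p = 0.779) and Nrp2 -0.31 (adjusted p = 0.290).

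The list of tip cells, where apelin is made, also had 1 rise and 0 falls among 10 tested genes (1.39% and 0.369% of all genes). At an unadjusted p under 0.05 there was 1 of the 10 (14.7% of all genes). Nid2, a basement membrane protein, read 10.61, 10.38 and 10.56 in wild type and 11.17, 11.15 and 11.26 in mutants, a rise of 0.68 (SE 0.08, adjusted p = 0.00435 by limma) that was called under all 13 alternatives. Angpt2 had 0.23, Dll4 0.12 and Pdgfb -0.14, and Esm1 was under the filter. Of 18 hypoxia targets, the group to which Apln belongs, 0 passed by limma and 5 had an unadjusted p under 0.05 (14.7% of all genes). Positive differences were found in 14 of the 18 (5246 of 11113 over all genes), with a median of 0.11. Bnip3 had 0.21 (adjusted p = 0.0876) and P4ha2 0.36 (adjusted p = 0.116), beside 0.01 for Apln.

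In the endocardial list, the inner lining of the heart, all 5 tested genes had positive differences (5246 of 11113 over all genes), with a median of 0.53. By limma 1 of the 5 rose and 0 fell (1.39% and 0.369% of all genes), and 3 had an unadjusted p under 0.05 (14.7%). The gene that passed was Cytl1, a secreted protein, with 8.60, 8.43 and 8.68 in wild type and 9.21, 9.14 and 9.33 in mutants. Its rise of 0.66 (SE 0.10, 1.58-fold, adjusted p = 0.0159 by limma) was lost without mutant replicate 1 or 3 (adjusted p = 0.102 and 0.0760). Arterial, capillary and lymphatic lists had 0 calls by limma among 14, 5 and 5 tested genes, with medians of -0.02, -0.17 and 0.11. At an unadjusted p under 0.05 they had 2, 1 and 1 (14.7% of all genes).

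Over all endothelial lists 3 of 65 tested genes rose and 0 fell, where 1.39% of all genes tested rose and 0.369% fell. The median was 0.03 and the lowest difference -0.34. None of the 65 was as low as Aplnr, but Aplnr was picked for its difference, so nothing is read from this. Without wild-type replicate 1 there were 7 rises and 2 falls, and without mutant replicate 1 or mutant replicate 3 there was 1 rise.

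**Figure D3:**
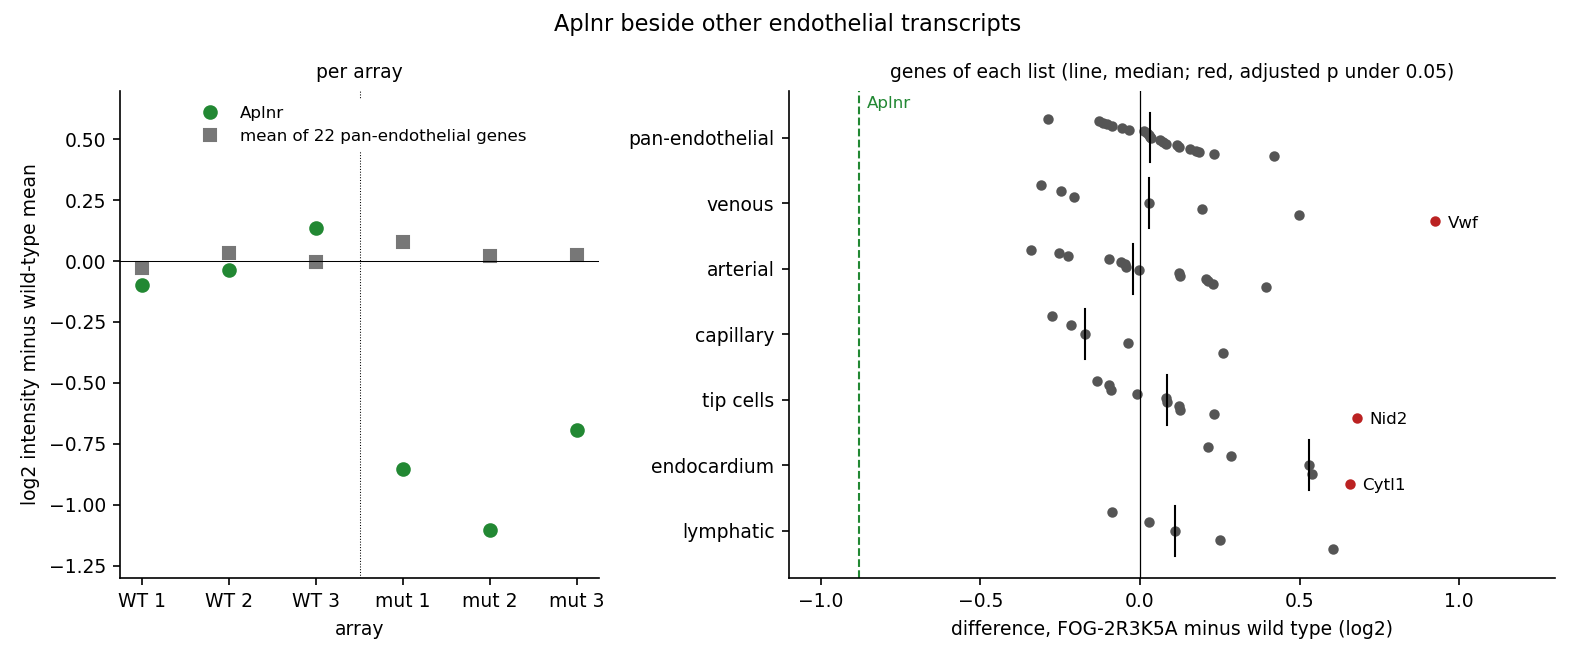
Left, log2 intensity of Aplnr and the mean of 22 pan-endothelial genes on each array, each minus its own wild-type mean; right, the difference between genotypes of each tested gene in 7 endothelial lists, with medians as lines, calls in red and Aplnr as a dashed line. Aplnr, picked for its difference, lies at -0.88, and the lowest gene of the lists at -0.34.

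Because Elabela has been placed in the epicardium, epicardial markers were read beside Apela. All 6 were above the filter level, and their summed level was 11.88 to 11.93 in wild type and 12.22 to 12.36 in mutants. Of the 6, 3 rose and 0 fell, where 1.39% of all genes tested rose and 0.369% fell. Krt19, a keratin of simple epithelia, rose by 0.93 (SE 0.09, adjusted p = 0.00188 by limma), Msln, a mesothelial surface protein, by 0.98 (SE 0.17, adjusted p = 0.0286) and Upk3b, a uroplakin, by 0.50 (SE 0.08, adjusted p = 0.0212). The call of Krt19 was kept under all 13 alternatives. That of Msln was lost without wild-type replicate 3, mutant replicate 1 or mutant replicate 3, with no filter and with no intensity trend (adjusted p = 0.0593 to 0.120). That of Upk3b was lost when wild-type replicate 2 or 3 or mutant replicate 1 or 2 was left out (adjusted p = 0.0542 to 0.129). The epicardial transcription factors had -0.06 for Wt1 and -0.11 for Tbx18, and neither passed (adjusted p = 0.919 and 0.522). Apela differed by 1.16, more than any of the 6 markers. The part of epicardial content in the Apela difference was not tested.

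The profiles over the 6 arrays most like that of Aplnr were found by centring each tested gene on its own mean and taking the root mean square distance to the main Aplnr probe set. The 8 nearest genes were Camk1d (0.15), a calmodulin-dependent kinase, Grk3 (0.15), Ampd3 (0.15), an AMP deaminase, Plppr1 (0.15), Ppfia4 (0.16), Dcp1b (0.16), a factor of mRNA decapping, Gimap3 (0.17) and Slc7a2 (0.17), a transporter of cationic amino acids. The median distance over tested genes was 0.47. Apln was at 0.47 and Apela at 1.06. All 8 genes were lower on every mutant array than on every wild-type array, which follows from the way they were found. Their differences ran from -0.98 for Slc7a2 to -0.65 for Ppfia4.

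**Figure D4:**
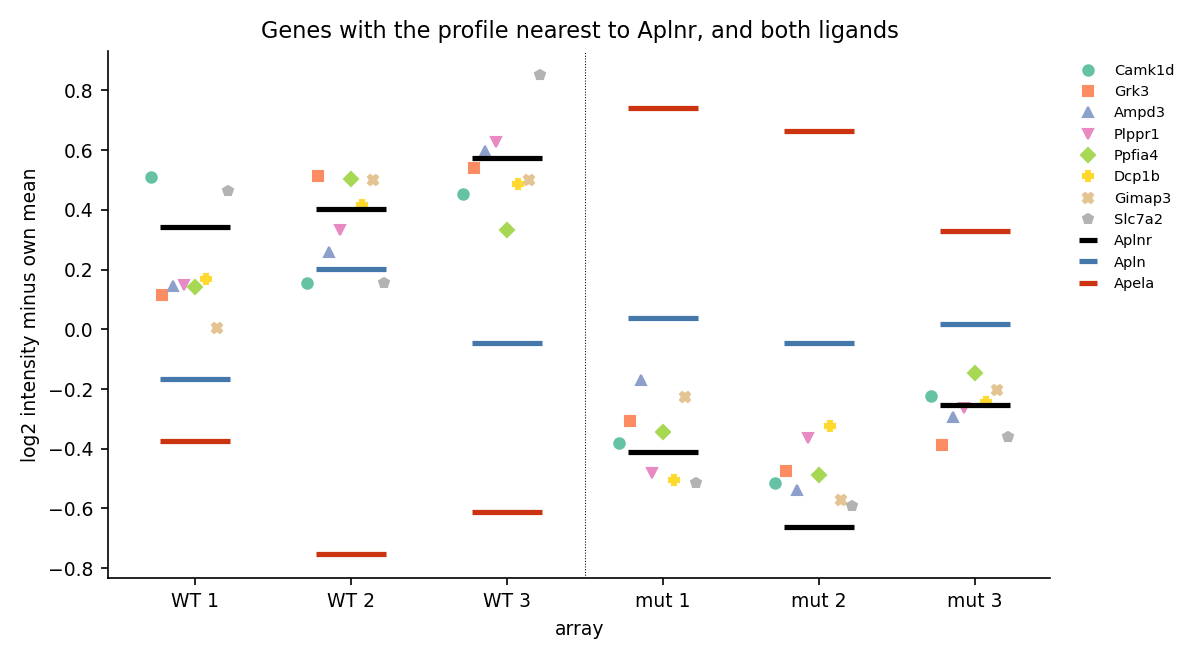
Log2 intensity of the 8 genes nearest to Aplnr in profile (symbols) and of Aplnr, Apln and Apela (bars) on each array, each minus its own mean over the 6 arrays. The 8 genes lie near Aplnr at distances of 0.15 to 0.17, Apln stays near 0, and Apela lies on the other side.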

How the data were processed

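Gene expression was measured on 1-colour Affymetrix mouse arrays from 3 µg of total RNA per sample, extracted with Trizol, per the labels' protocols. The deposited table holds linear probe set intensity values already on a common scale (array medians within 0.12 log2 units); the sources used here name no software, normalization or detection call. Values under 1 were raised to 1 before taking log2. The platform annotation gave 1 symbol to 34945 of the 45037 probe sets that are no array controls; probe sets with several symbols or none were left out. Where a gene had several probe sets, the brightest on average was used. Genes with a mean above the median of all probe set means (6.30 log2 units) were tested, 11113 of 18193.

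The test between genotypes was that of limma 3.58.1, run under R 4.3.3 (lmFit, eBayes with intensity trend, two-sided, Benjamini-Hochberg over all genes tested), and the fit was tested on simulated data. Differences are mutant minus wild type, and SE and 95% intervals are limma's. The members and gene lists were chosen with earlier results of these data known. No p is therefore given for the members, and the counts and p-values of list genes are a description. Named genes are the members, the called genes of each list (or its 2 genes of smallest p where none was called) and the 8 nearest to Aplnr in profile. Not all of them are printed. Other list genes were printed after their values were seen and were not counted as named genes. Alternatives covered normalization, offset, filter, probe sets of a gene, variance model, replicate block and each array left out. Promoter sequences are RefSeq's for GRCm38.p6, which held 2 of the 3 genes (Apela and Apln). The number of arrays limits the precision.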

Additional observations from a re-analysis of the deposited data

How the results depend on the processing

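The differences of Aplnr (-0.98 to -0.77), Apela (1.05 to 1.28) and Aplnr relative to pan-endothelial genes (-1.03 to -0.83) kept their sign under quantile normalization, an offset of 16, the mean over probe sets, the replicate block and each array left out, and that of Apln stayed between -0.07 and 0.11. The number of changed genes was 113 with a filter at 8 log2 units, 125 with the mean over probe sets, 81 with no filter and 119 with no intensity trend, against 196, and 30 to 448 with 1 array left out. Calls in the apelin lists ran from 0 to 4 and in the endothelial lists from 1 to 9 with 1 array left out. Deviations of same-numbered replicates correlated at -0.06, 0.13 and 0.41, and those of differently numbered ones at -0.32 to 0.25. The numbers were not taken to pair the samples, though these few values cannot decide it. With the replicate block 234 genes were called, 3 of them in the apelin and 4 in the endothelial lists. The SE of the Aplnr difference was then 0.08, against 0.11. Over 48 named genes other than the members and 599 results under alternatives, 515 kept direction and side of the threshold, 73 lost a call and 10 gained one. Most of the 48 were not called to begin with, and staying uncalled counts among the 515. Only genes called to begin with could lose a call. Among them Krt19 and Nid2 kept it under 13 of 13 alternatives, Furin and Vwf under 10, Grk3 under 6 and Casq1 under 3. The 1 result that reversed was that of Sox10, a gene of Schwann cells that was not called. It was at 0.15 without wild-type replicate 3 (-0.31 to 0.15 with 1 array left out). With 1 array left out the remaining 5 carry fewer degrees of freedom.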

Other observations

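The profile search made for Aplnr was repeated for Apela after its values were seen. The 8 nearest genes were P3h2 (0.06), a prolyl hydroxylase of collagen, Rassf4 (0.10), Hacd4 (0.11), an enzyme of fatty acid elongation, Otub2 (0.11), a deubiquitinase, Ggct (0.12), AW551984 (0.14), Krt222 (0.16) and Zbtb8b (0.17). The distance of P3h2 was the smallest, with 7.58, 7.16 and 7.27 in wild type and 8.59, 8.60 and 8.36 in mutants. All 8 were higher on every mutant array than on every wild-type array, which follows from the way they were found, and their differences ran from 0.94 for Krt222 to 1.27 for Hacd4.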
